A study of Mus musculus with 16 samples.

Results

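The Hedgehog pathway core was taken as 8 genes: the ligand gene Shh, its receptor Ptch1, the signal transducer Smo, the ligand-binding antagonist Hhip, the inhibitor Sufu and the transcription factors Gli1, Gli2 and Gli3. Members were found by the array annotation, as probe sets whose only gene symbol is that of a member. All 8 had exactly 1 probe set, among 19938 genes with a symbol of their own. They were described over 16 expression arrays of mouse brain RNA, 4 for each of 4 groups. The control group was normal brain, wild-type for Pdgfb, Trp53 and Rbpj. The tumours labelled PDGF+p53-/- (PDGF-p53 below) arose in mice with floxed p53 alleles after infection with a PDGF-IRES-Cre retrovirus, which delivers both PDGF-B and Cre recombinase. The same virus in mice with floxed p53 and RBPjk alleles gave the tumours labelled PDGF+p53-/-RBPjk-/- (PDGF-p53-RBPJ). RBPjk, encoded by Rbpj, is the DNA-binding partner of the Notch receptors. The tumours labelled p53-/-RBPjk-/- (p53-RBPJ) were made without virus, by deletion of both floxed genes in cells in which a Hes5::CreERT2 transgene is active, and Pdgfb was left wild-type. All 3 tumour types therefore share the loss of p53. Where 3 values follow each other without names, they are for PDGF-p53, then PDGF-p53-RBPJ, then p53-RBPJ tumours, each against normal brain.

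Tumours were cut out under a Cre-inducible GFP reporter once the mice showed behavioural signs. The dissected tissue can hold host cells beside tumour cells. The labels give no age or strain, no brain region for the control tissue, and no word on whether the 4 arrays of a group come from different mice. The p-values thus rest on array-to-array spread alone, which may be technical. The values are log2 expression levels with array medians between 5.97 and 6.06, and arrays of 1 group correlated with r from 0.967 to 0.984 over probe sets. Rbpj RNA averaged 8.01 ± 0.20 in normal brain, 8.32 ± 0.16 in PDGF-p53, 7.73 ± 0.15 in PDGF-p53-RBPJ tumours (SD, n = 4 each). The p53-RBPJ tumours averaged 7.78 ± 0.12 (SD, n = 4). Against PDGF-p53 tumours the difference was -0.59 for PDGF-p53-RBPJ (limma adjusted p = 0.269) and -0.53 for p53-RBPJ (adjusted p = 0.0191). The second difference did not pass with housekeeping centring, the mean of the probe sets, a term for sex pattern or a fit of only the 2 groups (adjusted p from 0.0646 to 0.112). It was also lost when replicate 2 of either type was left out (adjusted p = 0.0612 and 0.0536). Pdgfb RNA averaged 5.89 ± 0.24 on control arrays and 5.53 ± 0.28 on p53-RBPJ arrays, beside 6.03 ± 0.21 in PDGF-p53 and 6.02 ± 0.13 in PDGF-p53-RBPJ tumours (SD, n = 4 each). Its differences from normal brain in the 2 types made with the virus were 0.14 and 0.13 and did not pass (limma adjusted p = 0.565 and 0.58). Whether this probe set reads the PDGF-B sequence of the virus is not given, so these values do not show the level of PDGF-B from the virus. Trp53 was not analysed here. Xist and the Y-linked genes had the female pattern on all 4 p53-RBPJ arrays, on 2 of 4 in normal brain and on 1 of 4 in each virus-induced type. A fit with a term for that pattern is given below where it ended a call. Markers of neurons were lower in every tumour type (14 of 14 measured), those of oligodendrocyte precursors higher (11 of 11) and those of dividing cells higher (13 of 13). Of all genes, 17.6% to 20.4% passed limma's test as lower and 13.6% to 16.4% as higher.

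Hedgehog ligands bind Ptch1, which otherwise keeps Smo silent. Active Smo gathers in the primary cilium and releases the Gli factors from Sufu. Gli2 then acts mainly as an activator, while Gli3 is cut into a repressor when the ligand is absent. Ptch1, Gli1 and Hhip are themselves target genes of the pathway, so their RNA is widely used as its readout. In the brain, Shh patterns the ventral neural tube, maintains neural stem cells and drives the growth of cerebellar granule cell precursors, and mutations in Ptch1, Smo or Sufu underlie a class of medulloblastoma.

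The promoters of the members were searched for motifs, since Gli factors and RBPJ bind known short motifs. The RefSeq table of promoters (GRCm38.p6) matched 6 members: Ptch1, Smo, Gli2, Gli3, Hhip and Sufu. Shh and Gli1 were not matched. The 250 bases before the start of the gene are shown 5′ to 3′ on the gene's strand for Ptch1 (chr13:63565736-63565985, minus strand) and Gli3 (chr13:15463473-15463722, plus strand), whose RNA changed most, and for Gli2 (chr1:119053620-119053869, minus strand), in which capitals mark the single motif match.
Ptch1: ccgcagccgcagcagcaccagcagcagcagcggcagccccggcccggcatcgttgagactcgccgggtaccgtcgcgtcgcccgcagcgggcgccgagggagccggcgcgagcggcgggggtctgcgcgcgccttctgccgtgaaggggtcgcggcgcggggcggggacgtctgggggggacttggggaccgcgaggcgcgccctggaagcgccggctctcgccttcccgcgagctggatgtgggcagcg
Gli3: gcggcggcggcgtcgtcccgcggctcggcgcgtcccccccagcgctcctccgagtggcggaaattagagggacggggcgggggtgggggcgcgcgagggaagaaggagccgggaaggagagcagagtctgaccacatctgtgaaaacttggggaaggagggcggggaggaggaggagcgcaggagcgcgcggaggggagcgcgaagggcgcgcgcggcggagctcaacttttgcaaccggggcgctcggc
Gli2: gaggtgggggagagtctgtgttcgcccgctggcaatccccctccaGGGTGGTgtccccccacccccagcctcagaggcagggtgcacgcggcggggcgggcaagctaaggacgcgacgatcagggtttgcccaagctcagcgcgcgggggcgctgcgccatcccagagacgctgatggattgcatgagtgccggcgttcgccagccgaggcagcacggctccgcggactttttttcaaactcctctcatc
The Gli consensus GACCACCCA was searched on both strands and lay in 74 of 32851 promoter windows of this length (0.225%) and in 0 of the 6 members. Its inner part ACCACCC, which lies within the consensus, occurred in 1289 windows (3.92%) and in 1 of the 6, Gli2, on the opposite strand and beginning 205 bases before the start. The RBPJ motif GTGGGAA occurred in 1779 windows (5.42%) and in 0 of the 6. A match is a string of letters and shows no binding. At these shares 6 windows would seldom hold a match, so the lack of one tells little. Sites outside the 250 bases were not searched. These windows were rich in G and C, at 78.4% for Ptch1, 72.8% for Gli3 and 67.2% for Gli2.

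Among the 8 members, 1 passed the test in PDGF-p53 tumours against normal brain (limma, Benjamini-Hochberg adjusted p under 0.05), 2 in PDGF-p53-RBPJ tumours, while p53-RBPJ tumours had 4. The background was broad: 31.1%, 33.6% and 36.8% of all 19938 genes passed in these comparisons. The members' shares of 12.5%, 25% and 50% of 8 genes are set against that background, and so few genes place no firm share. Gli3, the factor that forms the repressor, fell in every tumour type. Ptch1, Smo and Sufu rose in p53-RBPJ tumours, and Gli2 fell in PDGF-p53-RBPJ tumours. Shh, Gli1 and Hhip passed in no comparison. With the term for sex pattern Ptch1 alone stayed past the threshold among the 4 in p53-RBPJ tumours. In p53-RBPJ tumours 0 of the 8 were free of overlap with normal brain, beside 34.4% of all genes. The members' median difference from normal brain was 0.01, -0.02 and 0.15, beside -0.04, -0.03 and -0.02 over all genes. Because the tissue is bulk, fewer cells of a type and less RNA per cell cannot be told apart.

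**Figure D1:**
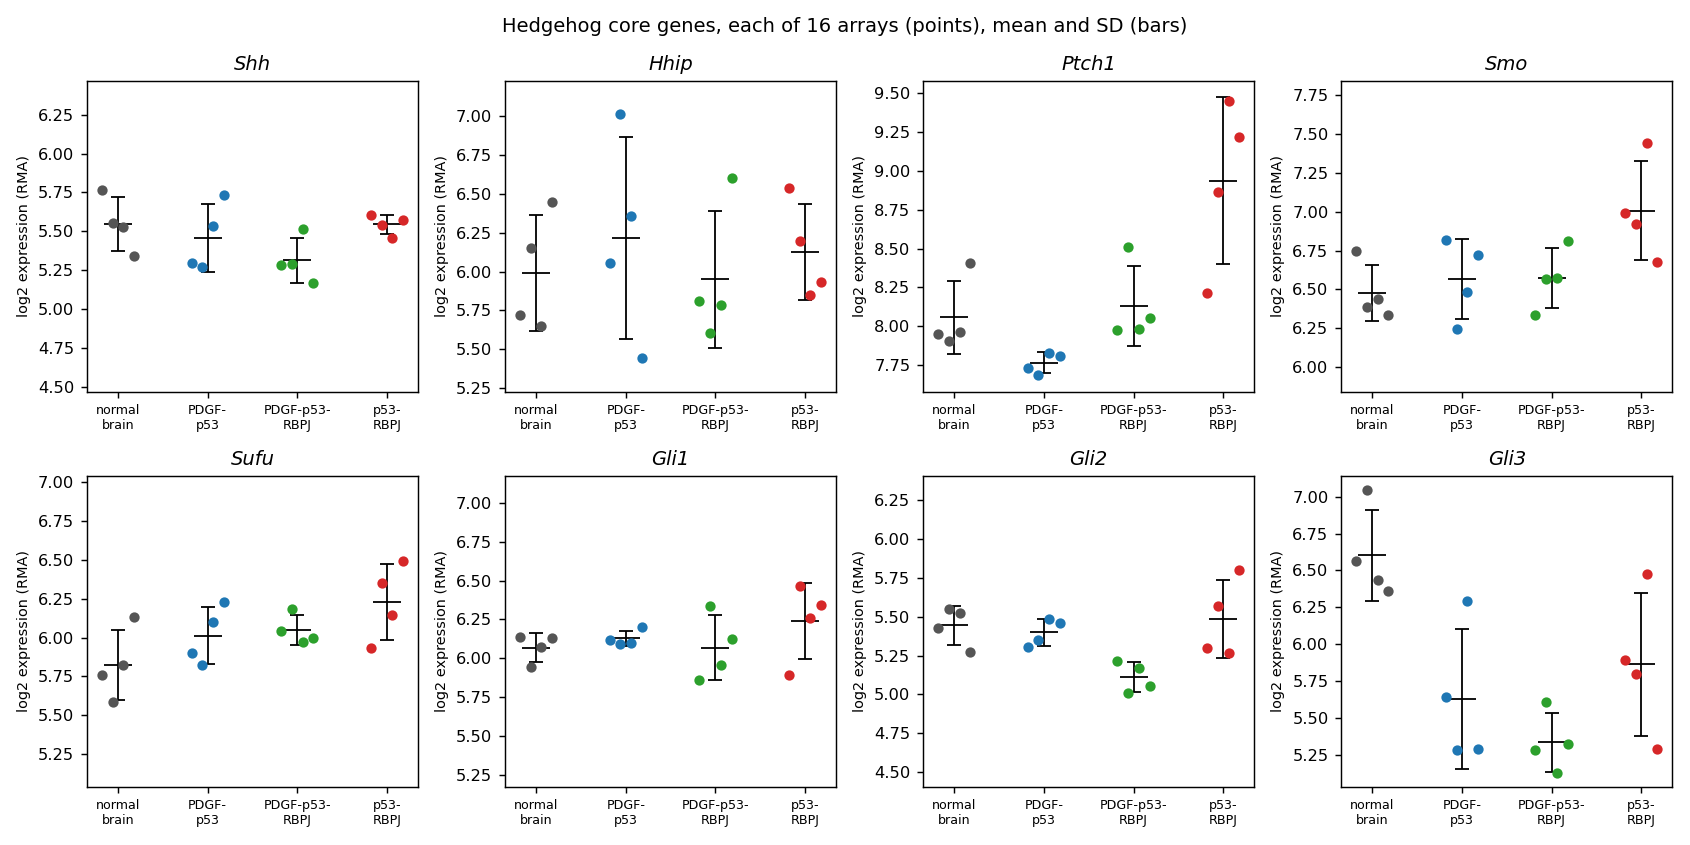
Log2 expression level of each of the 8 Hedgehog core members on every array, by group, with 4 arrays a group; points are arrays, and black bars are group means with the SD. Gli3 lies highest in normal brain (6.36 to 7.04), and Ptch1 lies highest in p53-RBPJ tumours (8.21 to 9.45), with 1 of their 4 arrays below the highest control array.

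Shh encodes the secreted ligand. Its level was 5.77, 5.55, 5.53 and 5.34 on the 4 arrays of normal brain, and 5.30, 5.27, 5.53 and 5.73 in PDGF-p53 tumours. PDGF-p53-RBPJ arrays read 5.29, 5.29, 5.51 and 5.17, and p53-RBPJ arrays 5.60, 5.54, 5.46 and 5.57. All groups overlapped, and the ligand's probe set was dim, with every group mean below 5.82, the 40th percentile of gene means. Differences from control were -0.09, -0.23 and -0.00 in the 3 tumour types, each with a standard error (SE) of 0.13. Limma adjusted p-values were 0.665, 0.182 and 0.993. The 95% interval in p53-RBPJ tumours ran from -0.27 to 0.26, and in PDGF-p53-RBPJ tumours from -0.50 to 0.03.

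Hhip encodes a membrane protein that binds and sequesters Hedgehog ligands. Its arrays read 5.72, 6.15, 5.65 and 6.45 in normal brain, and 6.05, 7.01, 6.36 and 5.44 in PDGF-p53 tumours. They read 5.81, 5.60, 5.78 and 6.60 in PDGF-p53-RBPJ and 6.54, 6.20, 5.85 and 5.93 in p53-RBPJ tumours. Hhip had the widest scatter of the members in PDGF-p53 tumours (SD 0.65, n = 4), and all groups overlapped. Its differences from control were 0.22, -0.04 and 0.13 with SE 0.29, and limma adjusted p-values were 0.62, 0.932 and 0.762. The intervals were wide, reaching from -0.38 to 0.82 in PDGF-p53 tumours.

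Ptch1 encodes the receptor that holds Smo in check. Its level was 7.95, 7.90, 7.96 and 8.41 in normal brain, and 7.73, 7.68, 7.83 and 7.81 in PDGF-p53 tumours. It was 7.98, 8.51, 7.98 and 8.05 in PDGF-p53-RBPJ and 8.21, 8.87, 9.45 and 9.22 in p53-RBPJ tumours. In p53-RBPJ tumours 3 of 4 arrays lay above all 12 others, and replicate 1 lay below control replicate 4 and PDGF-p53-RBPJ replicate 2. The rise over normal brain was 0.88 ± 0.21 (SE), or 1.84-fold, with limma adjusted p = 0.0024 and exact permutation p = 0.0571. Leaving out each array in turn gave rises between 0.71 and 1.12, all past the threshold. In PDGF-p53 tumours all 4 arrays lay below all 4 control arrays, a difference of -0.29 ± 0.21 with limma adjusted p = 0.328 and exact permutation p = 0.0286, the smallest that 4 against 4 arrays can give. Groups that do not overlap occurred for 30% of all genes in that comparison. In PDGF-p53-RBPJ tumours the difference was 0.07 ± 0.21 (adjusted p = 0.834).

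Control replicate 4 stood apart for Ptch1, at 8.41 against 7.90 to 7.96 on the other 3 control arrays. The same array had the highest level of a list of 15 cerebellum and granule cell precursor genes, a mean of 6.999 beside 5.74, 5.75 and 5.84 on the other control arrays. Without it the Ptch1 rise in p53-RBPJ tumours was 0.998 (limma adjusted p = 0.00168), and the difference in PDGF-p53 tumours was -0.18 (adjusted p = 0.617). The tumour arrays had levels of that list between 5.15 and 5.53, below every control array. A list of 8 forebrain genes was lower as well, at 5.45 to 6.41 on tumour arrays against 7.01 to 7.53 on control arrays. Ptch1 correlated with the cerebellum list at r = 0.06 over the 16 arrays. Control replicate 4 was also the highest control array for 11 mature oligodendrocyte markers (9.72 beside 8.20 to 8.72). The part of this array's tissue in the control level was not tested.

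Smo encodes the transmembrane transducer. It read 6.74, 6.39, 6.44 and 6.34 in normal brain, 6.82, 6.24, 6.48 and 6.72 in PDGF-p53, and 6.34, 6.57, 6.57 and 6.81 in PDGF-p53-RBPJ tumours. The p53-RBPJ arrays read 6.99, 6.92, 7.44 and 6.68, of which 3 lay above all control arrays and 1 within them. The rise was 0.53 ± 0.17, or 1.44-fold, with limma adjusted p = 0.0174 and exact permutation p = 0.0571. The call did not hold when control replicate 4 was left out (adjusted p = 0.0509), without p53-RBPJ replicate 3 (0.39, adjusted p = 0.072) or with the term for sex pattern (0.45, adjusted p = 0.0692). In the virus-induced types the differences were 0.09 and 0.10, with adjusted p = 0.751 and 0.721.

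Sufu binds Gli proteins and holds them inactive. It read 5.76, 5.59, 5.83 and 6.13 in normal brain, 5.90, 5.82, 6.10 and 6.23 in PDGF-p53, 6.04, 6.19, 5.97 and 5.997 in PDGF-p53-RBPJ, and 5.93, 6.35, 6.15 and 6.49 in p53-RBPJ tumours. The p53-RBPJ arrays were higher than normal brain by 0.40 ± 0.14, or 1.32-fold, with overlap (limma adjusted p = 0.0329, exact permutation p = 0.0571). This call was lost without any 1 of 5 arrays, control replicates 1, 2 or 3 or p53-RBPJ replicates 2 or 4, with adjusted p from 0.0604 to 0.112. It was also lost with the term for sex pattern (adjusted p = 0.074) and with only the 2 groups in the fit (0.0716). The differences in PDGF-p53 and PDGF-p53-RBPJ tumours were 0.19 and 0.22 (adjusted p = 0.37 and 0.262).

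Gli1, an activator and target gene of the pathway, read 6.13, 5.94, 6.07 and 6.13 in normal brain and 6.12, 6.09, 6.10 and 6.20 in PDGF-p53 tumours. It read 5.86, 6.34, 5.96 and 6.12 in PDGF-p53-RBPJ and 5.89, 6.46, 6.26 and 6.35 in p53-RBPJ tumours. The group means lay between 6.07 and 6.24, and all groups overlapped. In p53-RBPJ tumours, where Ptch1 rose, the Gli1 difference was 0.17 ± 0.13 with a 95% interval from -0.10 to 0.45 and limma adjusted p = 0.339. Replicate 1 was the lowest of the 4 p53-RBPJ arrays for Ptch1 and for Gli1. It was also the lowest for Sufu (5.93) and the highest for the target gene Hhip (6.54). In PDGF-p53 and PDGF-p53-RBPJ tumours the Gli1 differences were 0.06 and -0.00, with adjusted p = 0.792 and 0.9997.

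Gli2 read 5.43, 5.55, 5.53 and 5.27 in normal brain, 5.31, 5.35, 5.48 and 5.46 in PDGF-p53, and 5.21, 5.01, 5.17 and 5.06 in PDGF-p53-RBPJ tumours. The p53-RBPJ arrays read 5.30, 5.57, 5.27 and 5.80. All 4 PDGF-p53-RBPJ arrays lay below the other 12. The fall against normal brain was -0.33 ± 0.12 (limma adjusted p = 0.0463, exact permutation p = 0.0286), and 34.5% of all genes did not overlap in that comparison. The probe set was dim, with no group mean above 5.48. The call was lost without any 1 of 12 arrays, all but control replicate 4 and p53-RBPJ replicates 1, 3 and 4, with adjusted p from 0.0517 to 0.112.

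Gli3, the source of the main Gli repressor, read 6.57, 7.04, 6.44 and 6.36 in normal brain. It read 5.64, 5.28, 6.29 and 5.29 in PDGF-p53, 5.28, 5.61, 5.13 and 5.32 in PDGF-p53-RBPJ and 5.89, 5.80, 6.47 and 5.29 in p53-RBPJ tumours. Both virus-induced types lay wholly below normal brain, and 1 p53-RBPJ array, replicate 3, lay within it. The falls were -0.98 ± 0.24 in PDGF-p53 tumours (1.97-fold lower, limma adjusted p = 0.00459) and -1.27 ± 0.24 in PDGF-p53-RBPJ tumours (2.41-fold lower, adjusted p = 0.000483), both with exact permutation p = 0.0286. These falls passed the threshold without any 1 of the 16 arrays. Mean Gli3 levels in these 2 types, 5.63 and 5.33, lay below the dim level of 5.82, so the sizes of the falls are less sure. In p53-RBPJ tumours the fall was -0.74 ± 0.24 (adjusted p = 0.0224, exact permutation p = 0.0857). It was lost without control replicate 2 (-0.59, adjusted p = 0.0844) or p53-RBPJ replicate 4 (-0.55, adjusted p = 0.0901), and with the term for sex pattern (-0.65, adjusted p = 0.0788).

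Mean levels of neuron and astrocyte markers were lower in all 3 tumour types, which also had less Gli3. Of 11 microglia and macrophage markers, 0 were lower in either virus-induced type and 6 in p53-RBPJ tumours. As lower, 17.6%, 17.9% and 20.4% of all genes passed in the 3 tumour types. The mean level of 14 neuron markers was 10.3 to 10.5 on control arrays, 7.11 to 8.49 in PDGF-p53, 6.94 to 8.12 in PDGF-p53-RBPJ and 6.25 to 7.42 in p53-RBPJ tumours. The mean of 12 astrocyte markers was 8.83 to 9.05 on control arrays and 7.15 to 8.42 on tumour arrays, and 9 of the 12 passed as lower in each tumour type. PDGF-p53 replicate 3, which had the highest Gli3 level of that group, also had its highest neuron level (8.49) and astrocyte level (8.42). Without it the Gli3 fall in PDGF-p53 tumours was -1.20 (limma adjusted p = 0.00053). In p53-RBPJ tumours replicate 3 likewise had the highest Gli3 (6.47), neuron (7.42) and astrocyte (7.44) levels. In PDGF-p53-RBPJ tumours the extremes of Gli3 and neuron level ran the other way. Replicate 2 had the highest Gli3 level of that group (5.61) and its lowest neuron level (6.94), and replicate 3 had the lowest Gli3 (5.13) and the highest neuron level (8.12). The p53-RBPJ tumours had the lowest neuron levels as a group and the smallest mean Gli3 difference. Over all 16 arrays Gli3 correlated with the neuron list at r = 0.72 and the astrocyte list at 0.71. It correlated with the oligodendrocyte precursor list at -0.80 and the cell division list at -0.76. Over the 12 tumour arrays the same values were 0.09, 0.16, -0.64 and -0.20. Gli3 was not tied to these lists alone. Over the 16 arrays it gave 0.71 with forebrain genes, 0.67 with choroid plexus and ependyma and 0.58 with mature oligodendrocytes. Cerebellum genes gave 0.52, endothelium 0.41, microglia and macrophages 0.13 and mural cells -0.31. Over the tumour arrays these values were 0.15, 0.04, 0.08, 0.32, -0.31, -0.09 and -0.19. These points share their groups and array scaling, and the part of cell mixture in the fall of Gli3 was not tested.

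**Figure D2:**
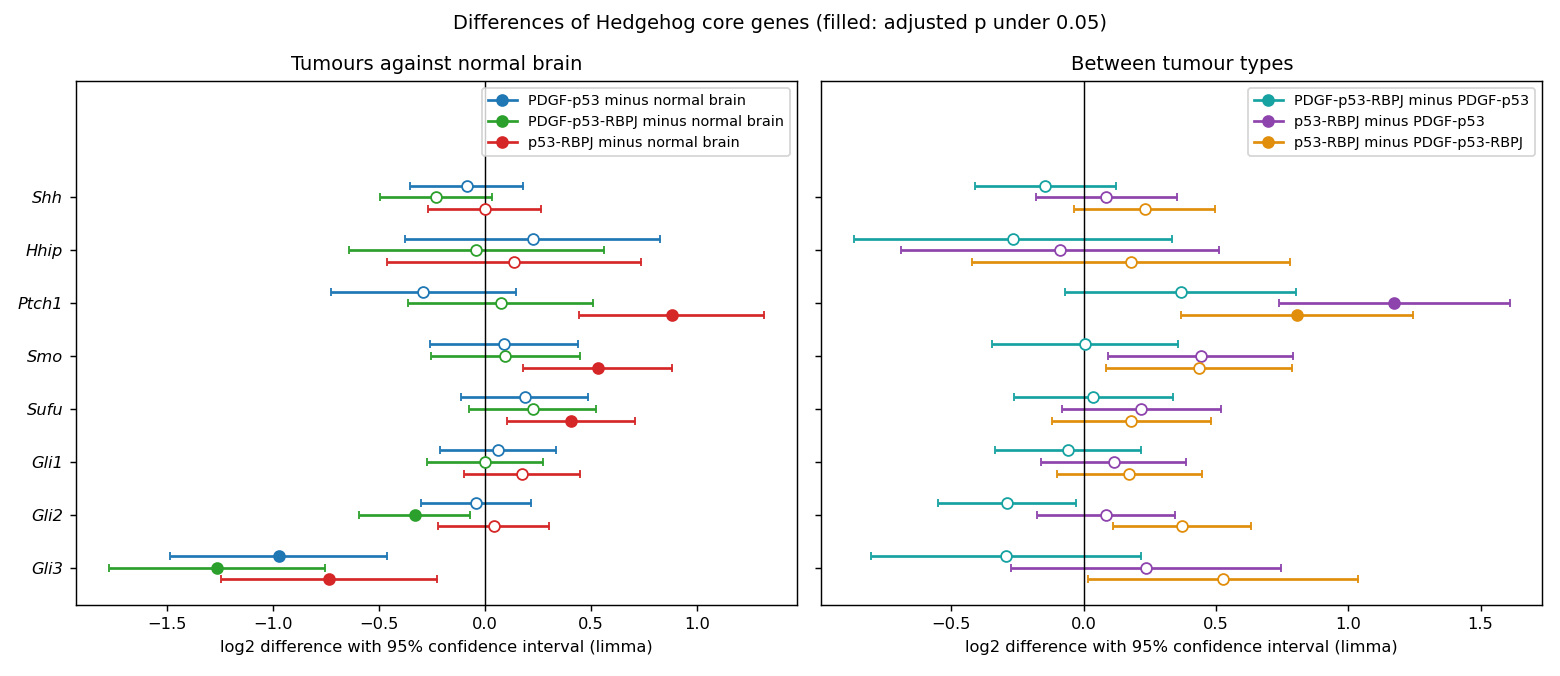
Log2 difference of each Hedgehog core member between groups, as tumour type minus normal brain and between tumour types; points are differences of means of 4 arrays and bars are 95% confidence intervals of the limma fit, with filled points where the adjusted p was under 0.05. Gli3 is below 0 in each tumour type against normal brain, and Ptch1 in p53-RBPJ tumours is above 0 against normal brain (0.88) and against PDGF-p53 tumours (1.17).

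Tumour types were then set against each other. PDGF-p53-RBPJ and PDGF-p53 tumours differ in the Rbpj deletion and share the virus. None of the 8 members passed limma's test between them, and 0.0201% of all genes passed. At an unadjusted limma p under 0.05, 1 of the 8 members did, beside 1033 of all 19938 genes. Ptch1 was higher with the Rbpj deletion by 0.37 (95% interval -0.07 to 0.80, adjusted p = 0.961) and Gli2 differed by -0.29 (interval -0.55 to -0.03, adjusted p = 0.925). The arrays of both types did not overlap for these 2 genes (exact permutation p = 0.0286 each), as for 3.17% of all genes. Gli3 differed by -0.29, with an interval from -0.80 to 0.22.

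Ptch1 alone among the members passed between p53-RBPJ and either virus-induced type. It was higher by 1.17 ± 0.21, or 2.26-fold, than in PDGF-p53 tumours, with no overlap (limma adjusted p = 0.00378, exact permutation p = 0.0286). In that comparison 5.54% of all genes passed and 9.75% did not overlap. Against PDGF-p53-RBPJ tumours it was higher by 0.81 ± 0.21, or 1.75-fold (adjusted p = 0.0412, exact permutation p = 0.0571), where 3.27% of all genes passed. The second call was lost without any 1 of 9 arrays (control replicates 1, 2 or 3, PDGF-p53-RBPJ replicates 1, 3 or 4, or p53-RBPJ replicates 2, 3 or 4), with differences from 0.64 to 0.83 and adjusted p from 0.0504 to 0.135. Gli2 was higher than in PDGF-p53-RBPJ tumours by 0.37 with no overlap, as for 9.69% of all genes, and did not pass (adjusted p = 0.115). Both comparisons share the p53-RBPJ arrays. Those 4 arrays also share 1 sex pattern. With the term for it the Ptch1 difference was 0.79 against PDGF-p53-RBPJ tumours (adjusted p = 0.228), and with only the 2 groups in the fit its adjusted p was 0.121.

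Of 94 other genes of the pathway written into 5 lists, 85 were measured. In PDGF-p53 tumours 18 were higher and 15 lower than in normal brain. In PDGF-p53-RBPJ tumours 17 were higher and 20 lower. The p53-RBPJ tumours had 19 higher and 22 lower. Over all genes 13.6%, 15.7% and 16.4% passed as higher, and 17.6%, 17.9% and 20.4% as lower.

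Of 8 genes for other ligands and ligand release, 2 passed as lower in every tumour type, and 2 as higher in p53-RBPJ tumours. In either direction 25%, 25% and 50% of them passed, beside 31.1%, 33.6% and 36.8% of all genes. Disp2, a relative of the transporter that exports the ligand, read 9.22 to 9.64 in normal brain, 7.21 to 8.24 in PDGF-p53, 7.21 to 8.34 in PDGF-p53-RBPJ and 6.60, 6.27, 6.72 and 6.94 in p53-RBPJ tumours. No tumour array overlapped normal brain, and the p53-RBPJ arrays lay below all others. Its falls were -1.53, -1.70 and -2.82 (SE 0.24 each), with limma adjusted p = 7.17e-05, 2.12e-05 and 5.62e-08. It was also lower in p53-RBPJ than in PDGF-p53 tumours (-1.28, adjusted p = 0.00503) and PDGF-p53-RBPJ tumours (-1.12, adjusted p = 0.0171). The second of these was lost without PDGF-p53-RBPJ replicates 1 or 3 (adjusted p = 0.0543 to 0.0701). Both were lost with the term for sex pattern (adjusted p = 0.0584 and 0.137). Scube1, of a family of secreted proteins that help release the ligand, fell by 1.13, 1.51 and 1.47. Neuron markers fell in the same tumours, with median differences of -3.02, -3.02 and -3.72. Their part in the falls of Disp2 and Scube1 was not tested. Scube3, a relative of Scube1, read 6.18, 6.48, 6.40 and 6.88 in p53-RBPJ tumours against 5.85 to 6.11 in normal brain. It rose there by 0.54 (adjusted p = 0.00546). In PDGF-p53-RBPJ tumours the Scube3 difference was -0.36 and did not pass (adjusted p = 0.0579). Hhat, which attaches the palmitate of the ligand, rose by 0.38 in p53-RBPJ tumours (adjusted p = 0.0247). The Hhat call was lost without any 1 of 4 arrays (control replicates 2 or 3, p53-RBPJ replicates 2 or 4; adjusted p = 0.0644 to 0.0854), with only the 2 groups (0.0646) and with the term for sex pattern (0.0587).

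The other receptors and coreceptors numbered 5. Gas1, a coreceptor that aids ligand binding, read 6.22 to 6.81 in normal brain, 6.99 to 7.20 in PDGF-p53, 6.57 to 6.97 in PDGF-p53-RBPJ and 7.03 to 7.32 in p53-RBPJ tumours. It rose by 0.68 in PDGF-p53 and 0.77 in p53-RBPJ tumours (limma adjusted p = 0.000719 and 0.000156), with no overlap. In PDGF-p53-RBPJ tumours the difference was 0.35 (adjusted p = 0.0523). Gpr161, a ciliary receptor that holds the pathway down, rose by 0.76 in p53-RBPJ tumours (adjusted p = 0.000488), and Lrp2, an endocytic receptor for Shh, by 0.64 (adjusted p = 0.0122, and 0.0504 without p53-RBPJ replicate 1). Boc, a coreceptor related to Cdon, fell in PDGF-p53-RBPJ tumours by 0.48 (adjusted p = 0.034), and Cdon passed in no tumour type. The Boc call was lost when control replicates 3 or 4 or PDGF-p53-RBPJ replicates 1 or 3 were left out (adjusted p = 0.0561 to 0.135).

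Of 24 genes that carry the signal to Gli, 5 were higher and 5 lower in PDGF-p53, 4 and 8 in PDGF-p53-RBPJ, while 5 rose and 10 fell in p53-RBPJ tumours. In either direction 41.7%, 50% and 62.5% of them passed, beside 31.1%, 33.6% and 36.8% of all genes. Prkacb and Csnk1a1, genes of kinases that mark Gli proteins for processing, were among the lower ones. They were named for their size of difference or a difference between tumour types, not as a set of kinases. Prkacb, a catalytic subunit of protein kinase A, read 10.3 to 10.4 in normal brain and 8.43 to 9.53 in tumours, and fell by 1.11, 1.21 and 1.54. Csnk1a1, a casein kinase, fell in PDGF-p53-RBPJ (-0.52, limma adjusted p = 0.0251) and p53-RBPJ tumours (-0.97, adjusted p = 0.000194). Its first fall did not pass when control replicate 2 or PDGF-p53-RBPJ replicates 2 or 4 were left out (adjusted p = 0.0716 to 0.101), nor with array weights (0.0742). Btrc, of the ubiquitin ligase that acts on phosphorylated Gli, fell by 1.03 in p53-RBPJ tumours, and Arrb1, an arrestin, fell by 0.96, 0.94 and 1.48. Neuron markers fell on the same arrays, and their part in the falls of these genes was not tested. Kif7, a ciliary kinesin that organises Gli and Sufu at the cilium tip, rose by 0.73, 0.67 and 1.07 (adjusted p = 0.0037, 0.00667 and 9.68e-05). Efcab7, which anchors the Evc complex downstream of Smo, rose by 0.61 in PDGF-p53 and 1.03 in p53-RBPJ tumours. The smaller rise of Efcab7 was lost without control replicates 1, 3 or 4 or PDGF-p53 replicates 1, 2 or 3 (adjusted p = 0.0664 to 0.0938), with housekeeping centring (0.121) and with the term for sex pattern (0.0507).

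The 29 genes of the primary cilium and its transport had median differences of -0.17, -0.21 and -0.15. In PDGF-p53 tumours 3 were higher and 7 lower, in PDGF-p53-RBPJ tumours 4 and 9, and in p53-RBPJ tumours 2 and 10. In either direction 34.5%, 44.8% and 41.4% of them passed, beside 31.1%, 33.6% and 36.8% of all genes. Kifap3, the adaptor of the kinesin-2 motor, fell by 0.84, 0.92 and 1.29 with no overlap. Neuron markers fell in the same arrays, with median differences of -3.02, -3.02 and -3.72, and their part in these falls was not tested.

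**Figure D3:**
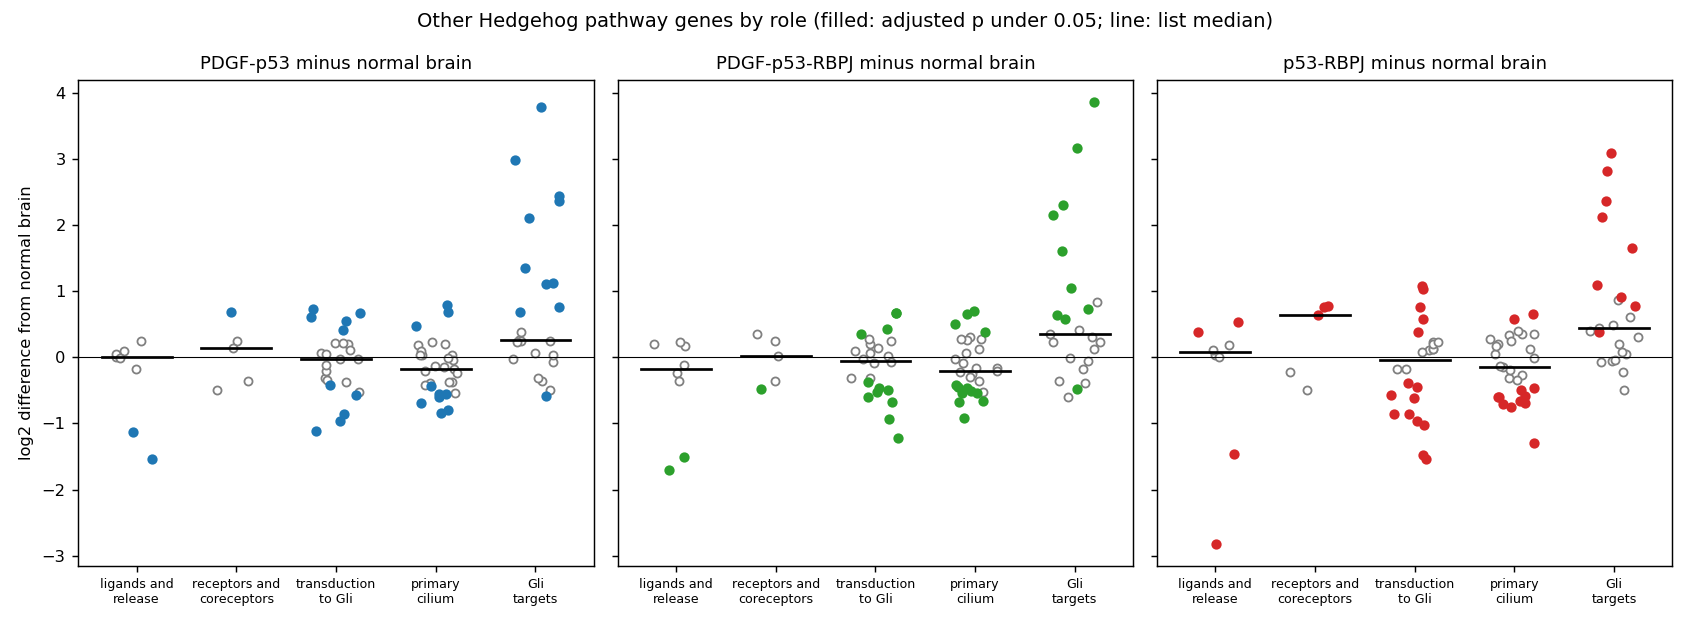
Log2 difference from normal brain of the measured genes of the 5 other pathway lists (8, 5, 24, 29 and 23 genes), by tumour type; points are genes, filled where the limma test was passed, and lines are list medians. Gli target genes that passed are mostly above 0, and cilium genes that passed are mostly below 0.

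Of 23 known Gli target genes other than the members, 10 were higher and 1 lower in PDGF-p53, 9 and 1 in PDGF-p53-RBPJ, while 9 rose and 0 fell in p53-RBPJ tumours. Their median differences were 0.26, 0.35 and 0.45, beside the all-gene medians above. In either direction 47.8%, 43.5% and 39.1% of them passed, beside 31.1%, 33.6% and 36.8% of all genes. The list gives no expected direction for a gene, so its counts and medians are no measure of pathway activity. Gas1, Boc, Cdon and Hhat stand in this list and in those above. Ccnd1, a G1 cyclin, rose by 3.77, 3.86 and 2.82, and Foxm1, a regulator of mitotic genes, by 2.97, 3.17 and 3.09. Olig2 (2.43, 2.30 and 2.12) and Nkx2-2 (1.35, 1.60 and 1.64) are transcription factors of oligodendrocyte precursors and also stand in that marker list. All 11 measured genes of that list and all 13 cell division genes rose in each tumour type. Foxf1, a forkhead factor, rose by 2.11 in PDGF-p53 and 2.35 in p53-RBPJ tumours, with 0.84 in PDGF-p53-RBPJ tumours (limma adjusted p = 0.0952). Mycn, a proliferation target in granule cell precursors, differed by 0.23, 0.30 and 0.40 and passed in no tumour type (adjusted p = 0.341, 0.204 and 0.0754).

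Ccnd2, a G1 cyclin and target gene in granule cell precursors, set the tumour types apart. It read 6.97, 7.35, 7.54 and 7.11 in normal brain and 6.74, 7.83, 7.24 and 7.51 in p53-RBPJ tumours. It read 8.99, 10.17, 9.83 and 9.40 in PDGF-p53 and 9.50, 9.32, 9.72 and 9.02 in PDGF-p53-RBPJ tumours. Every virus-induced array lay above every array of the other 2 groups. The rises in the virus-induced types were 2.35 and 2.15 (5.12-fold and 4.44-fold, limma adjusted p = 1.29e-06 and 2.77e-06), and the difference in p53-RBPJ tumours was 0.08 ± 0.25 (95% interval -0.44 to 0.61, adjusted p = 0.831). The p53-RBPJ tumours differed from them by -2.27 and -2.06 (adjusted p = 0.000185 and 0.000651). Ccnd1 was also lower in p53-RBPJ tumours, with differences of -0.96 against PDGF-p53 and -1.04 against PDGF-p53-RBPJ (adjusted p = 0.00723 and 0.007). The first was lost with only the 2 groups in the fit (adjusted p = 0.059), and the second with the term for sex pattern (0.0555).

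Pax6, a transcription factor gene of neural progenitors and granule cells, ran the other way. It read 7.05, 6.87, 6.98 and 6.97 in p53-RBPJ tumours, 6.06, 5.56, 6.29 and 5.81 in PDGF-p53 and 6.08, 6.09, 6.04 and 6.30 in PDGF-p53-RBPJ tumours. The p53-RBPJ arrays lay above both virus-induced types, by 1.04 (limma adjusted p = 0.00562) and 0.84 (adjusted p = 0.0253). Normal brain read 6.19, 6.18, 6.49 and 7.22, with replicate 4 again the highest. The fall in PDGF-p53 tumours against normal brain (-0.59, adjusted p = 0.0274) was lost without control replicate 4 (-0.36, adjusted p = 0.099), without PDGF-p53 replicates 2 or 4 (adjusted p from 0.0681) and with only the 2 groups (0.0836). The rise over PDGF-p53-RBPJ tumours was lost without PDGF-p53-RBPJ replicates 1, 2 or 3 or p53-RBPJ replicates 3 or 4 (adjusted p = 0.057 to 0.0902). With the term for sex pattern neither difference between tumour types passed (0.91 and 0.72, adjusted p = 0.0823 and 0.234).

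**Figure D4:**
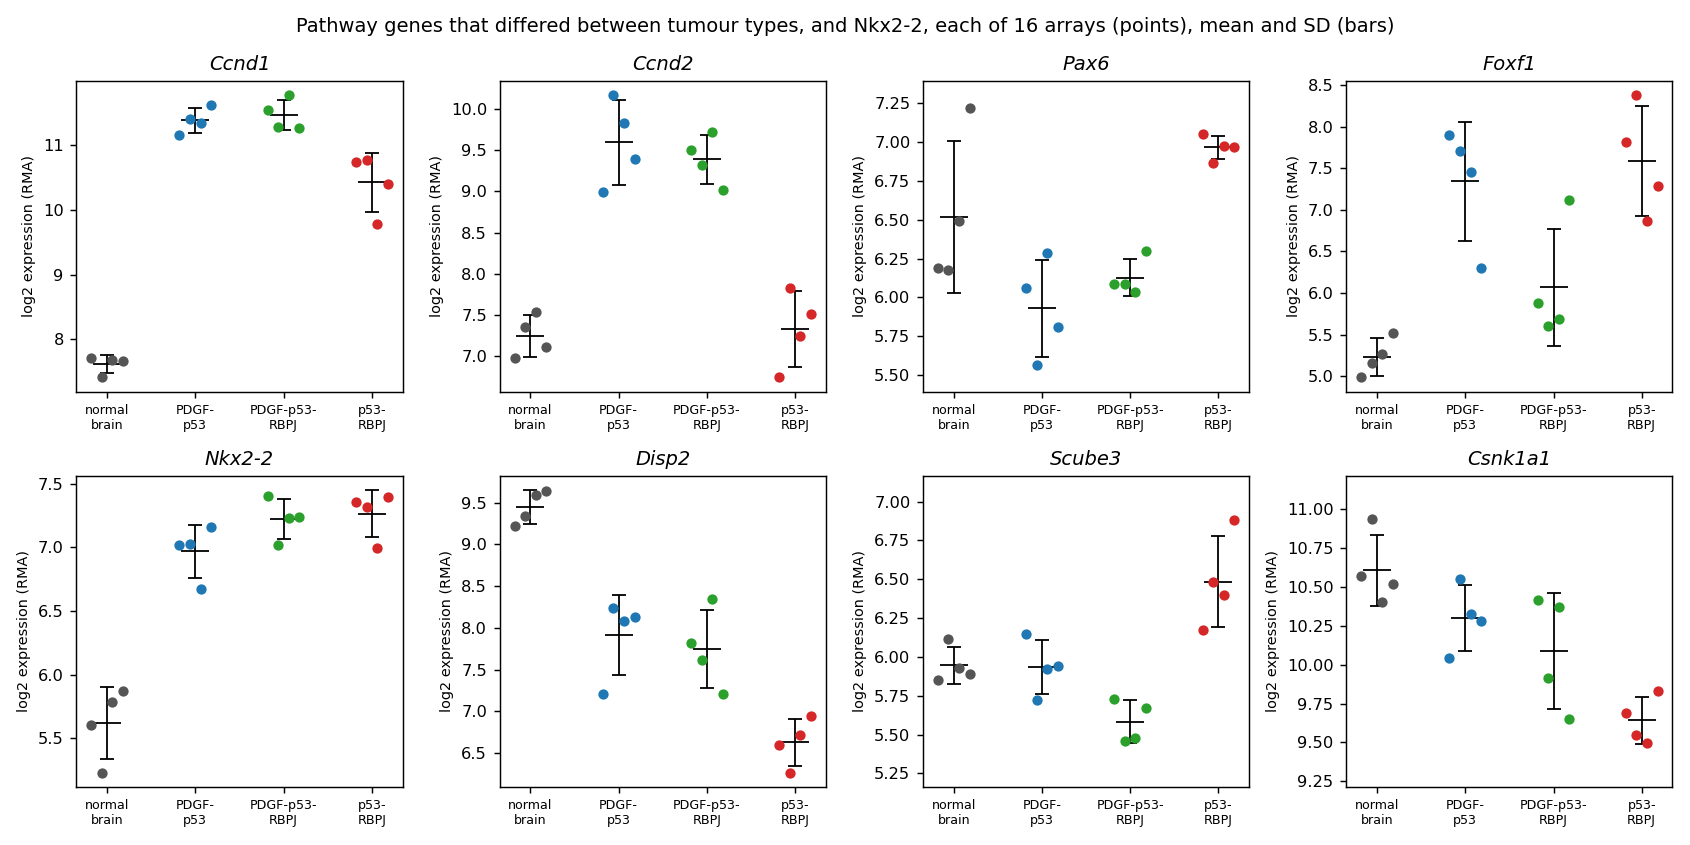
Log2 expression level of 7 pathway genes that differed between tumour types, and of Nkx2-2, on each array by group; points are arrays, and black bars are group means with the SD (n = 4). Ccnd2 is between 8.99 and 10.17 in both virus-induced types and between 6.74 and 7.83 in the other groups.

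The place of each member among its neighbours was also examined, by the order of genes in the reference gene table. Of the 10 genes nearest Ptch1 on chromosome 13, 2 were measured. Fancc, a Fanconi anaemia gene, and Ercc6l2, a DNA repair helicase gene, lie on either side of Ptch1. In p53-RBPJ tumours they were higher than in normal brain by 0.89 (limma adjusted p = 3e-05) and 0.85 (adjusted p = 0.000116), beside 0.88 for Ptch1 itself. In PDGF-p53-RBPJ tumours they were also higher, by 0.48 (adjusted p = 0.0083) and 0.53 (adjusted p = 0.00792), beside 0.07 for Ptch1, though not with housekeeping centring (0.065 and 0.0644). In PDGF-p53 tumours the differences were 0.37 (adjusted p = 0.0405) and 0.32 (adjusted p = 0.11), beside -0.29 for Ptch1. The Fancc call there was lost without any 1 of 6 arrays (control replicates 1, 2 or 3, PDGF-p53 replicates 1 or 2, or PDGF-p53-RBPJ replicate 3; adjusted p = 0.051 to 0.132). Both were higher than in PDGF-p53 tumours as well, by 0.52 (adjusted p = 0.0269) and 0.54 (adjusted p = 0.0356). Both of these calls were lost with the term for sex pattern (adjusted p = 0.256 and 0.372) and with only the 2 groups (0.113 and 0.0694). Leaving out PDGF-p53 replicates 2, 3 or 4 or p53-RBPJ replicates 3 or 4 ended both, and p53-RBPJ replicates 1 or 2 that of Ercc6l2 (adjusted p = 0.0529 to 0.0968). Against PDGF-p53-RBPJ tumours the differences were 0.41 (adjusted p = 0.102) and 0.33 (adjusted p = 0.262).

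The window was widened after these values were seen, to the 20 measured genes on each side of every member. Of the 40 around Ptch1, 11 were higher and 1 lower in p53-RBPJ tumours than in normal brain, beside 16.4% and 20.4% of all genes. Windows around the other 7 members held 5 to 12 higher and 7 to 13 lower genes. A gene counted as above the dim level when its highest group mean reached 5.82, so p53-RBPJ tumours alone could bring a gene in. Among the 19 Ptch1 neighbours above the dim level, the median deviation from the control mean was 0.40, 0.55, 0.78 and 0.77 on the 4 p53-RBPJ arrays. Ptch1 itself deviated by 0.16, 0.81, 1.39 and 1.16 on those arrays. In PDGF-p53 tumours the lowest Ptch1 array, replicate 2 (-0.37), had the highest neighbour median (0.30). The neighbour medians were 0.09 to 0.30 in PDGF-p53 and 0.22 to 0.40 in PDGF-p53-RBPJ tumours, and -0.07 to 0.10 on control arrays. For the other 7 members the same median on p53-RBPJ arrays ran from -0.31 to 0.35. Over all 40 Ptch1 neighbours, dim ones included, the p53-RBPJ medians were 0.12, 0.11, 0.11 and 0.18. The part of the neighbourhood in the rise of Ptch1 was not tested.

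**Figure D5:**
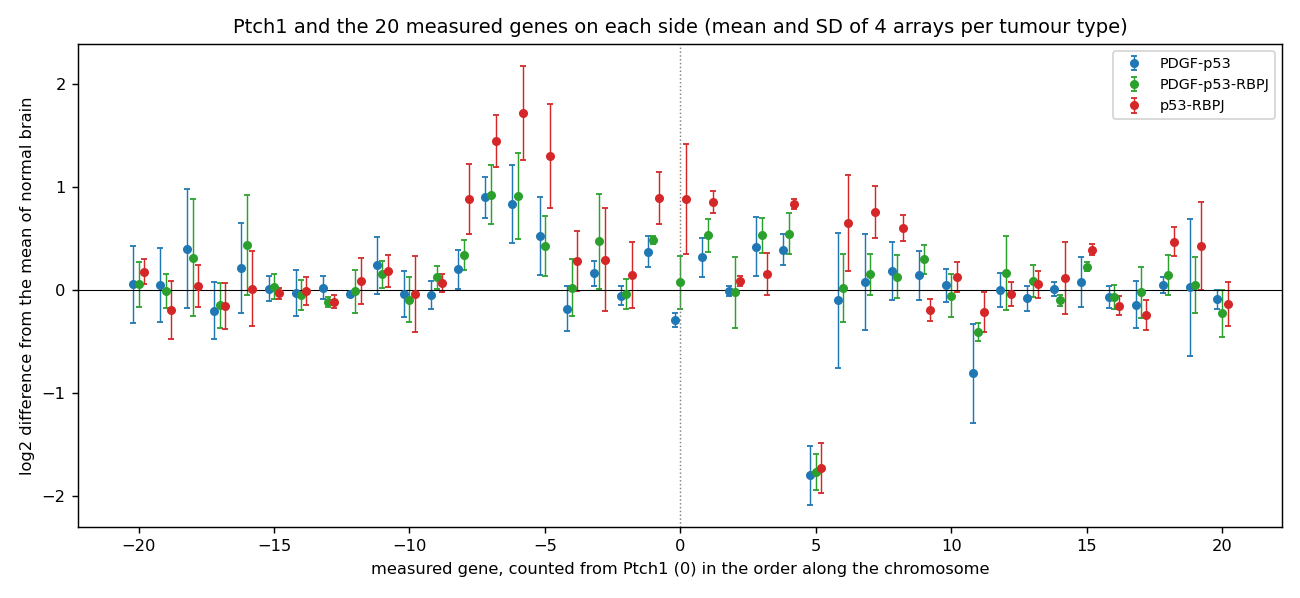
Log2 difference from the mean of normal brain of Ptch1 (at 0) and of the 20 measured genes on each side in gene order, which is not distance; points are means of 4 arrays per tumour type and bars are SDs. Ptch1 and its nearest measured genes, Fancc and Ercc6l2, stand at 0.88, 0.89 and 0.85 in p53-RBPJ tumours. On those arrays all 40 neighbours have medians of 0.11 to 0.18, and the 19 above the dim level have medians of 0.40 to 0.78.

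Among the members, levels over the 16 arrays correlated most for Gli1 and Sufu (r = 0.69, and 0.73 over the 12 tumour arrays), Ptch1 and Sufu (0.67 and 0.70) and Ptch1 and Gli1 (0.63 and 0.62). Ptch1 and Smo gave 0.59 and 0.63, while Ptch1 and Hhip, both target genes, gave -0.15 and -0.26. Among 18249 genes with a proper symbol, the one most like Ptch1 over the 16 arrays was Gkap1 (r = 0.93, and 0.97 over the tumour arrays), on the same chromosome with 40 measured genes between them. Kansl3 (0.89) and Trp53bp2 (0.88) followed, both on chromosome 1. The genes most like Gli3 were Atp6ap1l (0.92), Lmo3 (0.92) and Dapk1 (0.91), those most like Smo were Pla2r1 (0.87), Eya3 (0.84) and Tas2r108 (0.83), and those most like Sufu were Olfr168 (0.88), Caml (0.85) and Rab7b (0.84). For Gli1 they were Lrrc25 (0.85), Yipf7 (0.84) and Neurog2 (0.84), for Gli2 Tmem51 (0.87), Btnl1 (0.84) and Myoz3 (0.83), for Shh Gna15 (0.80), Shisa2 (0.78) and Sema3f (0.78), and for Hhip Phf20l1 (0.83), Tspan8 (0.83) and Hibch (0.80). These are the highest of many values over arrays that share groups, and are given as a description.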

How the data were processed

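Total RNA was extracted with Trizol and hybridised to Affymetrix arrays, per the labels' protocols. The deposited values are on a log2 scale. The submitters' processing notes name RMA and oligo as the authors' tools; their versions, and any later scaling, are not given in the sources. RMA gives all arrays the same distribution, so a change in total RNA per cell cannot be seen. Levels of different probe sets are not comparable.

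Of 35556 probe sets, 21789 have 1 gene symbol, 1621 several and 12146 none in the array annotation. Where a gene had several (999 genes), the one with the highest mean was used, which left 19938 genes. Groups came from titles. All 16 arrays entered 1 fit with limma 3.58.1 in R 4.3.3 (lmFit, eBayes), with 12 residual and 5.33 prior degrees of freedom. The 6 pairwise comparisons were two-sided, with Benjamini-Hochberg adjustment over all genes and a threshold of 0.05. Permutation tests were exact and two-sided. The median SE was 0.15, and the number of arrays limits precision. The fit was tested on simulated data.

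The members and gene lists were chosen with earlier results of these data known. All members are named. Other pathway genes were named where they passed against normal brain with a log2 difference of at least 1 (at most 6 a list), or between tumour types (at most 6 a comparison), and the rest as examples, chosen after their values were seen. Neighbours were the 5 genes on each side in the reference table, and likeness took the 3 highest r. Alternatives are given at the end. Python 3.11.15, numpy 2.4.6, pandas 2.3.3 and matplotlib 3.10.9 made tables and figures.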

Additional observations from a re-analysis of the deposited data

Results flagged for a closer look

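Of 100 pairs of a named gene and a group, 5 had 1 array far from the other 3 by Dixon's criterion, about as many as chance gives (1 in 20). Ptch1 was 8.41 on control replicate 4 (others 7.90 to 7.96) and 8.51 on PDGF-p53-RBPJ replicate 2 (others 7.98 to 8.05). Disp2 was 7.21 on PDGF-p53 replicate 1 (others 8.08 to 8.24), Prkacb 8.43 on p53-RBPJ replicate 4 (others 8.90 to 8.98) and Ccnd1 7.41 on control replicate 2 (others 7.66 to 7.70).

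The p53-RBPJ tumours differed from a virus-induced type by limma's test of the difference itself in 15 results. These were 8 of 93 core and other pathway genes (8.6%) against PDGF-p53 tumours, where 5.54% of all genes passed, and 7 of 93 (7.53%) against PDGF-p53-RBPJ tumours, where 3.27% passed. With a term for the sex pattern, which all 4 p53-RBPJ arrays share, 10 of the 15 did not pass. With only the 2 groups in the fit 6 did not. Against PDGF-p53 tumours these were Ptch1 (1.17), Pax6 (1.04), Scube3 (0.55, adjusted p = 0.0288), Disp2 (-1.28), Ccnd2 (-2.27), Ccnd1 (-0.96), Csnk1a1 (-0.66, adjusted p = 0.0312) and Kifap3 (-0.45, adjusted p = 0.0335). The call for Scube3 was lost without PDGF-p53 replicates 2, 3 or 4 or p53-RBPJ replicates 2 or 4 (adjusted p = 0.0562 to 0.0969). That for Csnk1a1 was lost without PDGF-p53 replicates 2, 3 or 4 or p53-RBPJ replicates 2 or 3 (0.0597 to 0.103), and that for Kifap3 without PDGF-p53 or p53-RBPJ replicates 2, 3 or 4 (0.0506 to 0.111). Against PDGF-p53-RBPJ tumours they were Ptch1 (0.81), Foxf1 (1.52, adjusted p = 0.0317), Scube3 (0.90, adjusted p = 0.00299), Pax6 (0.84), Disp2 (-1.12), Ccnd1 (-1.04) and Ccnd2 (-2.06). The call for Foxf1 was lost without PDGF-p53-RBPJ replicates 1, 2 or 3 or p53-RBPJ replicates 1, 2 or 4 (0.0519 to 0.116). Both sets of differences share the p53-RBPJ arrays. With the term for sex pattern the adjusted p was 0.228 for Ptch1, 0.234 for Pax6, 0.137 for Disp2, 0.205 for Foxf1 and 0.0555 for Ccnd1 against PDGF-p53-RBPJ tumours. Against PDGF-p53 tumours it was 0.0823 for Pax6, 0.143 for Scube3, 0.0584 for Disp2, 0.179 for Csnk1a1 and 0.191 for Kifap3.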

How the results depend on the processing

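The members and 25 other genes were recomputed under 9 other settings and without each of the 16 arrays. Of 1922 values for 77 called results, 1775 kept direction and call, 147 lost the call and 0 changed sign. Of 964 values for 39 member results that were not called, 37 changed sign, 5 moved by over 1 SE and 0 became called. Other genes given as not passing were not recomputed. The falls of Gli3 in both virus-induced types and the rises of Ptch1 in p53-RBPJ tumours against normal brain and PDGF-p53 tumours held under every setting run.

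The 2 members called in PDGF-p53-RBPJ tumours against normal brain became 1 without dim genes, since Gli2 was then not tested, 1 with the replicate number as a replicate block (Gli2, adjusted p = 0.069), and 1 to 2 when leaving out an array. The 4 called in p53-RBPJ tumours became 1 with the sex term (Gli3 0.0788, Smo 0.0692, Sufu 0.074) and 2 to 4 when leaving out an array, with 2 without control replicate 2 or p53-RBPJ replicate 4. With only the 2 groups, Sufu had adjusted p = 0.0716. The 1 member called between p53-RBPJ and PDGF-p53-RBPJ tumours, Ptch1, became 0 with only the 2 groups in the fit (adjusted p = 0.121), 0 with the sex term (0.228) and 0 to 1 when leaving out an array. Of the other pathway genes, the 7 called between p53-RBPJ and PDGF-p53 tumours became 3 with only the 2 groups, 2 with the sex term and 4 to 12 when leaving out an array (12 without PDGF-p53 replicate 1). The 6 called between p53-RBPJ and PDGF-p53-RBPJ tumours became 11 with array weights, 2 with the sex term and 3 to 8 when leaving out an array.

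Over all genes, the 4 calls between PDGF-p53-RBPJ and PDGF-p53 tumours became 2 with housekeeping centring or the replicate block and 2 to 7 without an array (7 without PDGF-p53 replicate 4). The 1105 calls of p53-RBPJ against PDGF-p53 tumours became 289 with only the 2 groups, 183 with the sex term and 553 to 1323 without an array. The 651 calls against PDGF-p53-RBPJ tumours became 404 with housekeeping centring, 1197 with array weights, 395 with only the 2 groups, 61 with the sex term and 176 to 802 without an array. The cause of these shifts was not tested. All 4 p53-RBPJ arrays have 1 sex pattern, so the sex term and that group are partly confounded. Housekeeping centring moved the median of all genes by -0.14 in PDGF-p53-RBPJ tumours against normal brain, and Gli1 there from -0.00 to -0.14.

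Arrays with the same number in different groups deviated together only weakly (r from -0.12 to 0.18, with 7 of 24 pairs over 0.1), so the numbers were not taken to pair the samples. The 3 pairs of tumour replicates 3 had r of 0.18, 0.17 and 0.16, and replicate 3 had the highest neuron level of each tumour type (8.49, 8.12 and 7.42). The replicate block changed no other call of a member, and among the other genes it ended those of Kifap3 between p53-RBPJ and PDGF-p53 tumours (adjusted p = 0.0502) and of Fancc in PDGF-p53 tumours (0.0506). Dim probe sets, Shh and Gli2 among the members, limit what small differences can be seen. Gli3 in the virus-induced types was also below the dim level of 5.82. Sufu in normal brain (5.83) and Gli3 in p53-RBPJ tumours (5.86) were just above it.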
